A study of Bos taurus with 21 samples.

Results

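A set of 124 transcripts of bovine endometrium, the lining of the uterus, had lower levels on day 16 than on day 13 after oestrus in cyclic and in pregnant heifers alike. They were taken from 28054 Ensembl transcript identifiers, of which 13646 reached a mean of at least 5 CPM (counts per 1000000 counts of the library) over 20 heifers. A member had a mean log2(CPM + 1) at least 0.8 lower on day 16 than on day 13 in cyclic heifers and at least 0.8 lower in pregnant heifers. Its pregnant and cyclic means on day 16 also lay within 1 of each other on that scale. These values chose the members, so their falls between days and their likeness on day 16 are given as a description, and no support is drawn from them.

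The animals were cross-bred beef heifers, mainly Charolais and Limousin crosses, and 4 groups of 5 were profiled, one for each state (cyclic or pregnant) on each day (13 or 16). Cycles of every group had been synchronised with a progesterone-releasing vaginal insert and an analogue of prostaglandin F2α. Cyclic heifers were not inseminated, and pregnant heifers were inseminated and sampled only where a conceptus of the proper stage was found in the flushed uterine horn. Each heifer was killed on one day, so a difference between days is a difference between animals, and the tissue was mostly intercaruncular endometrium from the horn next to the corpus luteum.

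As background, the corpus luteum secretes progesterone throughout this stretch of the cycle, whether or not a conceptus is present, and progesterone alters what the endometrium makes and secretes into the uterine lumen. That secretion, the histotroph, feeds the conceptus while it elongates before implantation. The bovine conceptus secretes interferon tau around the time of maternal recognition of pregnancy, which keeps the corpus luteum from regressing. The deposited files name transcripts by identifier alone, and 0 of the identifiers matched an entry of the RefSeq gene table at hand. The members are therefore described by level and by rank, 2 of them are named, no role can be given for any of them, and the tissue could not be checked against marker genes. In bulk tissue a lower level may come from fewer cells of a type or from less RNA in each cell, and these cannot be told apart.

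Library totals ran from 1256870 to 3764342 counts over 21 libraries, so that 3 counts were worth 0.797 to 2.39 CPM. Pregnant day 16 heifer 12 was sequenced from 2 libraries, of which the rule left out library 2. That library was closer to the library of pregnant day 16 heifer 19 (chi-square per degree of freedom 2.001) than any other of the 210 pairs of libraries (3.30 or more), and its value against library 1 of heifer 12 was 6.85. With library 2 summed into heifer 12 the rule chose 131 transcripts, with library 2 in place of library 1 it chose 135, and with library 2 summed into heifer 19 it chose 126. All 124 members were among the transcripts chosen in each case.

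The members' joint share of a library in cyclic heifers was 1.81% ± 0.297 (SD, n = 5) on day 13 and 0.628% ± 0.0666 (n = 5) on day 16. In pregnant heifers it was 1.91% ± 0.233 (n = 5) on day 13 and 0.672% ± 0.132 (n = 5) on day 16. Averaged over the 124 members, log2(CPM + 1) was 5.60 ± 0.32 in cyclic and 5.74 ± 0.15 in pregnant day 13 heifers, and 4.15 ± 0.16 in cyclic and 4.16 ± 0.32 in pregnant day 16 heifers (SD, n = 5 each). All 10 day 13 heifers lay above all 10 day 16 heifers, as the choice of members makes likely. The lowest day 13 heifer was cyclic heifer 5 at 5.12, and the highest day 16 heifer was pregnant heifer 4 at 4.49.

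**Figure D1:**
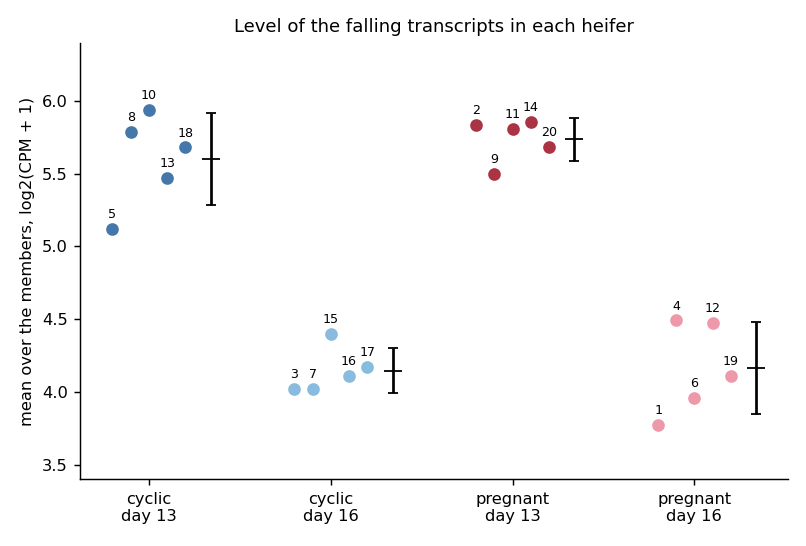
Mean log2(CPM + 1) over the 124 members (vertical axis) in each heifer, with one point per heifer labelled by its number, for the 4 groups on the horizontal axis. Black bars give the group mean and SD (n = 5): the day 13 heifers lie between 5.12 and 5.94 and the day 16 heifers between 3.78 and 4.49.

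The sizes of the falls ranged widely. The median change was -1.36 in cyclic heifers, from -3.69 to -0.81, and -1.33 in pregnant heifers, from -3.58 to -0.82, against medians of 0.01 and -0.0003 over all 13646 expressed transcripts. In 14 members the fall was at least 2 on the log2 scale (4-fold) in both states, in 71 the smaller fall lay between 1 and 2, and in 39 it was under 1. The 14 members with the steepest falls averaged 5.69 ± 0.46 in cyclic and 6.11 ± 0.46 in pregnant day 13 heifers, and 3.19 ± 0.24 and 3.21 ± 0.69 in cyclic and pregnant day 16 heifers (log2(CPM + 1), SD, n = 5). The 39 with the shallowest falls went from 4.99 ± 0.22 and 5.16 ± 0.10 on day 13 to 4.03 ± 0.14 and 4.02 ± 0.25 on day 16, in the same order of states.

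Members that fell more in one state tended to fall more in the other. Across the 124 members the falls in the 2 states had a Pearson correlation of 0.769 and a Spearman correlation of 0.688, over transcripts cut at the same threshold in both states and measured in different heifers. The fall was larger in pregnant heifers for 73 members and larger in cyclic heifers for 51, and in 96 the 2 falls were within 0.5 of each other. Differences of at least 0.5 were seen in 22 members with the larger fall in pregnant heifers and in 6 with the larger fall in cyclic heifers. Of the 14 steepest, 11 fell further in pregnant heifers, with medians of -3.11 in pregnant and -2.42 in cyclic heifers. The 14 are not separate profiles: ranks 5 and 7, 6 and 8, and 10 and 11 had within-group correlations of 0.979, 0.989 and 0.993. Shares over all transcripts are not given for these counts, so they are a description. No member was called for a difference between the states in its day change (smallest edgeR adjusted p = 0.345).

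**Figure D2:**
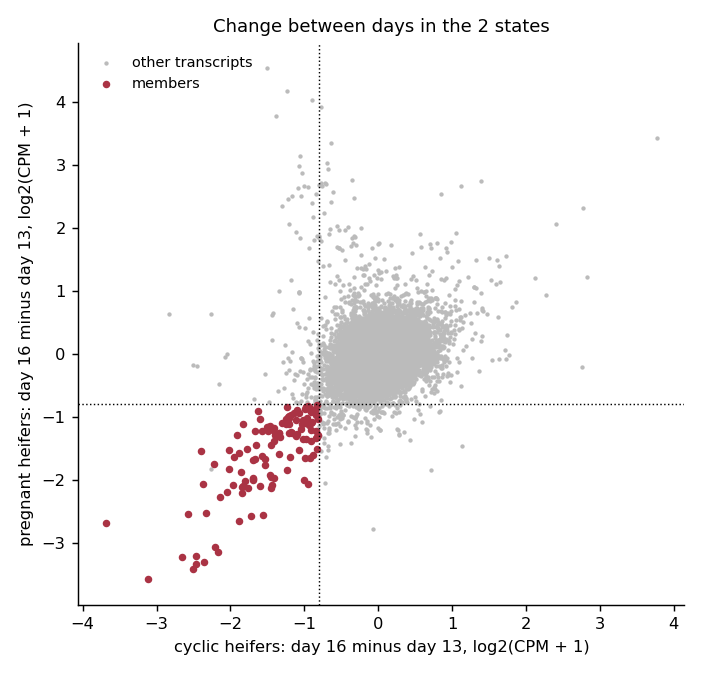
Change from day 13 to day 16 in cyclic heifers (horizontal axis) and in pregnant heifers (vertical axis), as differences of mean log2(CPM + 1), one point per transcript with a mean of at least 5 CPM. The 124 members (red) fill the corner below -0.8 on both axes (dotted lines), and 1 further transcript in that corner was kept out by its day 16 difference between states.

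At the edge of the rule the members were barely distinct from their neighbours. The last 5 members had smaller falls of 0.81 to 0.83, and the first 5 transcripts outside had 0.79 to 0.80. The last member, at 50.5 CPM over all heifers, had changes of -0.81 in cyclic and -1.29 in pregnant heifers, and the nearest transcript outside, at 9.50 CPM, had -0.80 and -1.15. The rule had a different effect on 1 transcript of 216 CPM that fell by 2.26 in cyclic and by 1.83 in pregnant heifers, and that was left out because its day 16 level was 1.08 higher in pregnant heifers. It stood at 150 to 458 CPM in cyclic and 313 to 531 CPM in pregnant day 13 heifers, at 33.4 to 69.5 CPM in cyclic day 16 heifers, and at 54.1 to 228 CPM in pregnant day 16 heifers, of which 2 lay within the range of the cyclic ones.

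Ranked by the smaller of the 2 falls, the first member was ENSBTAT00000006144. In cyclic day 13 heifers 5, 8, 10, 13 and 18 it had 84.8, 121, 170, 139 and 111 CPM, and in cyclic day 16 heifers 3, 7, 15, 16 and 17 it had 31.8, 12.7, 10.9, 5.93 and 14.2 CPM. In pregnant day 13 heifers 2, 9, 11, 14 and 20 it had 191, 55.8, 223, 344 and 281 CPM, and in pregnant day 16 heifers 1, 4, 6, 12 and 19 it had 2.39, 20.4, 17.1, 37.6 and 18.1 CPM. Heifer 9 was low for its day and heifer 1, at 3 counts, was lowest of all, and no day 16 heifer reached the lowest day 13 heifer of either state. The edgeR log2 fold change was -3.02 (SE 0.50) in cyclic and -3.43 (SE 0.50) in pregnant heifers.

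ENSBTAT00000028139, second in rank, had the largest fall of all members in cyclic heifers and was about 7 times as abundant as the first over all heifers, at 692 against 94.6 CPM. It had 595, 2101, 1923, 1096 and 1179 CPM in cyclic day 13 heifers 5, 8, 10, 13 and 18, against 58.4, 69.2, 94.9, 155 and 140 CPM in cyclic day 16 heifers 3, 7, 15, 16 and 17. Pregnant day 13 heifers 2, 9, 11, 14 and 20 had 1824, 533, 1194, 986 and 982 CPM, and pregnant day 16 heifers 1, 4, 6, 12 and 19 had 78.0, 324, 118, 253 and 132 CPM. Heifers 5 and 9 were again the lowest of their groups, and again no day 16 heifer overlapped with a day 13 heifer. The edgeR log2 fold change was -3.73 (SE 0.45) in cyclic and -2.59 (SE 0.43) in pregnant heifers, and the direct test of the difference between these changes did not pass (difference 1.15, SE 0.58, edgeR adjusted p = 0.470).

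The fourth member in rank had 1 day 16 heifer far above the others of its group. It had 28.8, 9.84, 21.4, 6.80 and 9.31 CPM in cyclic day 13 heifers 5, 8, 10, 13 and 18, and 1.31, 1.82, 1.09, 0.424 and 3.07 CPM in cyclic day 16 heifers 3, 7, 15, 16 and 17. Pregnant day 13 heifers 2, 9, 11, 14 and 20 had 16.69, 23.6, 28.7, 18.6 and 22.9 CPM. In pregnant day 16 heifers 1, 4, 6 and 19 it had 1.59, 0.742, 1.46 and 1.23 CPM, whereas heifer 12 had 35.9 CPM, above every other heifer of the study. Library 2 labelled heifer 12, not used by the rule, had 2.85 CPM. The edgeR log2 fold change in pregnant heifers was -1.34 with heifer 12 and -4.14 without it, and with library 2 in its place it was -3.77. Library 2 was closer to the library of heifer 19 than to library 1 of heifer 12, which limits that last value. With heifer 12 the member was called in neither state (edgeR adjusted p = 0.0808 in cyclic and 0.345 in pregnant heifers).

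The most abundant member, ranked 64, held 16.97% of the summed mean CPM of the 124, and the 10 most abundant held 55.4%. It had 3212, 3148, 3432, 3175 and 2218 CPM in cyclic day 13 heifers 5, 8, 10, 13 and 18, and 963, 1553, 947, 1176 and 1103 CPM in cyclic day 16 heifers 3, 7, 15, 16 and 17. Pregnant day 13 heifers 2, 9, 11, 14 and 20 had 2666, 1992, 2895, 3259 and 4138 CPM, and pregnant day 16 heifers 1, 4, 6, 12 and 19 had 1225, 1243, 1102, 2116 and 999 CPM. The days did not overlap in cyclic heifers, while pregnant heifer 12 on day 16 passed heifer 9 on day 13. The second most abundant member, ranked 75, had 1405 to 2055 CPM in cyclic and 1150 to 2240 CPM in pregnant day 13 heifers, and 593 to 937 CPM in cyclic and 657 to 899 CPM in pregnant day 16 heifers, with no overlap between days. Its edgeR log2 fold changes were -1.22 (SE 0.16) in cyclic and -1.09 (SE 0.16) in pregnant heifers, with a smaller SE than the 0.45 and 0.43 of ENSBTAT00000028139.

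The third most abundant member, ranked 26, varied more between heifers. It had 603, 1459, 994, 1106 and 945 CPM in cyclic day 13 heifers 5, 8, 10, 13 and 18, and 247, 171, 714, 362 and 228 CPM in cyclic day 16 heifers 3, 7, 15, 16 and 17, so that heifer 15 on day 16 passed heifer 5 on day 13. Pregnant day 13 heifers ranged from 750 to 1772 CPM, with heifer 9 the highest, and pregnant day 16 heifers from 130 to 553 CPM, with no overlap. Its edgeR log2 fold change was -1.56 (SE 0.42) in cyclic heifers, or -2.02 without heifer 15, and -1.88 (SE 0.42) in pregnant heifers. The last member in rank overlapped between days in cyclic heifers, with 33.5 to 107 CPM on day 13 and 18.7 to 42.3 CPM on day 16, and not in pregnant heifers, with 45.3 to 117 CPM and 13.53 to 43.0 CPM.

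**Figure D3:**
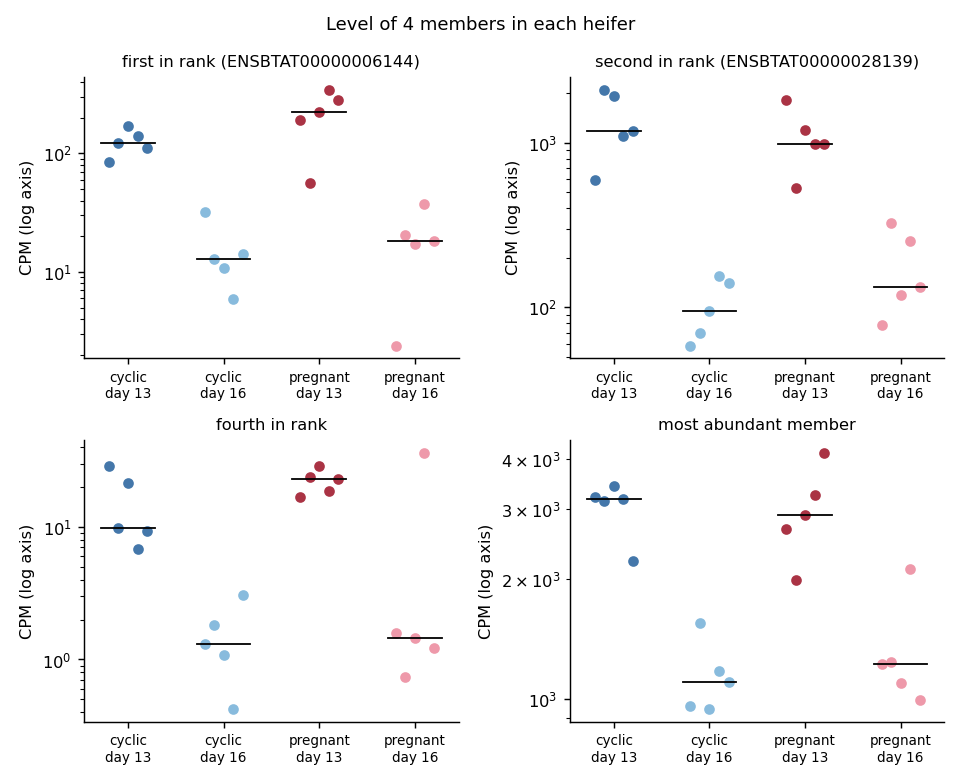
CPM on a log axis in each heifer (points) of 4 members, with the group median as a line, for the 4 groups on the horizontal axis. In the panel of the fourth member, pregnant day 16 heifer 12 stands at 35.9 CPM above 4 heifers between 0.742 and 1.59 CPM.

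Abundance and the size of the fall were weakly related over the members (Spearman correlation of mean CPM with the smaller fall 0.113, n = 124). Mean levels ran from 5.04 to 2128 CPM with a median of 38.8 CPM, and 30 members exceeded 100 CPM while 27 were under 10 CPM. The 42 most abundant members, from 58.1 CPM upward, had median changes of -1.43 in cyclic and -1.41 in pregnant heifers. The 41 least abundant, up to 15.4 CPM, had median changes of -1.34 and -1.53. Low levels were reached mostly on day 16: a level of 3 counts or fewer occurred in 2 of 620 values (124 members in 5 heifers) in cyclic and in 0 in pregnant day 13 heifers, and in 27 in cyclic and 53 in pregnant day 16 heifers. Only 3 values were 0, all in pregnant day 16 heifers.

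All 124 members passed the filter of the edgeR model fitted to all transcripts. With an adjusted p under 0.05 taken as a call (quasi-likelihood test, Benjamini-Hochberg adjustment over 14826 transcripts), 76 members were called as lower on day 16 in cyclic heifers, where 1.24% of all transcripts were. In pregnant heifers 94 members were called as lower, where 2.11% of all transcripts were. Both calls were made for 68 members, where 0.681% of all transcripts had both, and neither for 22. The rule used these contrasts, so the counts say how far the chosen falls exceeded the spread between heifers and nothing more. DESeq2 called 97 members in cyclic and 105 in pregnant heifers (1.94% and 2.76% of all transcripts), and limma voom called 65 and 83 (0.971% and 1.81% of all transcripts).

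Separation of single heifers gave a similar picture. In cyclic heifers all 5 day 16 values lay below all 5 day 13 values for 63 members, against 2.11% of the 13646 expressed transcripts, and in pregnant heifers for 73, against 2.68%. For 41 members this held in both states, against 0.564%, and for 39 members all 10 day 16 heifers lay below all 10 day 13 heifers, against 0.469%. In 29 members the days overlapped in both states. The 71 members with intermediate falls separated the days in both states in 30 cases, the 14 steepest in 6 and the 39 shallowest in 5.

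Leaving out a heifer can only keep or raise the number of members without overlap, so a rise is fixed in advance and is a description. With all heifers the numbers were 63 in cyclic (background 2.11%) and 73 in pregnant heifers (background 2.68%). The number rose most without the heifers given next, and the background rose as well. Without cyclic day 13 heifer 5, 83 members separated the days in cyclic heifers (background 4.94%), and without cyclic day 16 heifer 15 the number was also 83 (background 2.84%). In pregnant heifers it was 93 without day 13 heifer 9 (background 3.67%), 88 without day 16 heifer 12 (background 3.69%) and 88 without day 16 heifer 4 (background 3.39%). Leaving out any of the other heifers gave 64 to 69 members in cyclic (background 2.55% to 3.22%) and 73 to 77 in pregnant heifers (background 3.04% to 4.00%).

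**Figure D4:**
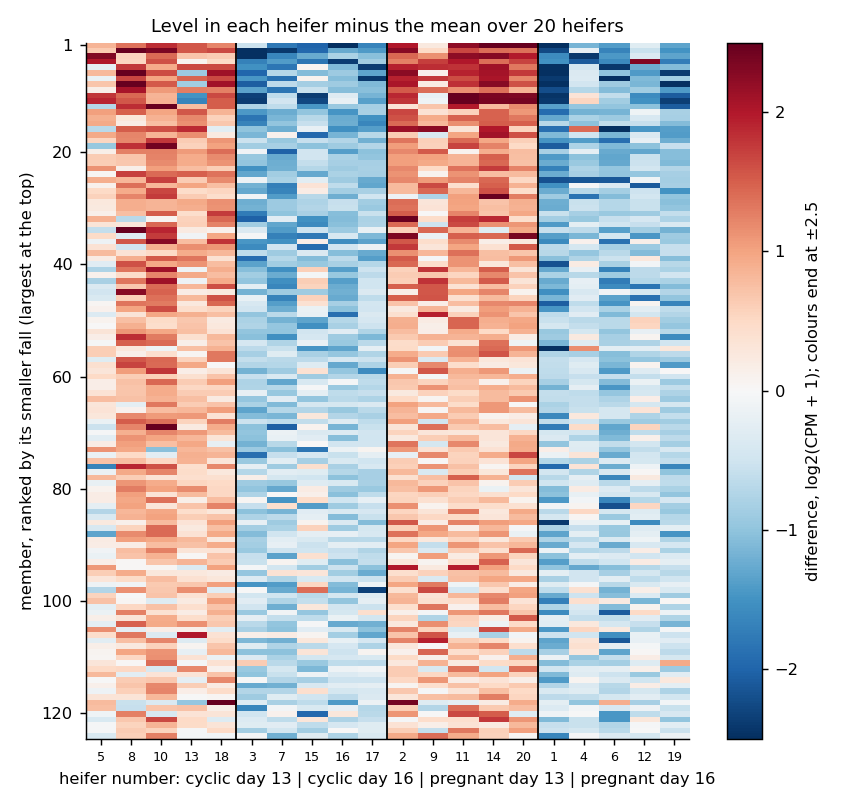
Difference of log2(CPM + 1) from the mean over 20 heifers (colour scale, ending at ±2.5) for each of the 124 members (rows, the largest smaller fall at the top) in each heifer (columns, grouped). Day 13 columns are mostly red and day 16 columns mostly blue, with paler columns for cyclic heifers 5 and 15, and a column of mixed colours for pregnant heifer 9.

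Heifers of 1 group differed more in these transcripts than in most. The SD of log2(CPM + 1) between heifers had a median over the members of 0.55 in cyclic day 13, 0.48 in pregnant day 13, 0.45 in cyclic day 16 and 0.48 in pregnant day 16 heifers. Over all expressed transcripts the medians were 0.27, 0.31, 0.25 and 0.27. Abundance was not matched in this comparison and the members were chosen by their values in these heifers, so it is a description.

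Cyclic heifer 5 was the heifer whose day 13 levels lay closest to those of day 16. It was the lowest of its group in 69 of the 124 members (55.6%), whereas it was lowest in 28.3% of all expressed transcripts, and its levels lay a median of 0.59 below the mean of the other 4 heifers. Pregnant day 16 heifer 1 was the lowest of its group in 48 members (38.7%, against 22.0% of all expressed transcripts), and heifer 6 in 41 (33.1%, against 29.1%), which is near its background. Heifer 4 was the highest of that group in 52 members (41.9%, against 13.53%) and heifer 12 in 50 (40.3%, against 20.5%).

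Pregnant day 13 heifer 9 was mixed. Compared with the mean of the other 4 heifers of its group, 53 members were lower by at least 0.5 and 29 were higher by at least 0.5, against 13.15% and 11.9% of all expressed transcripts. The 29 members that were high in heifer 9 were also high in cyclic day 16 heifer 15 (median 1.08 above its group), pregnant day 16 heifer 4 (0.88) and cyclic day 13 heifer 10 (0.72). They were low in cyclic day 13 heifer 5 (-0.90), cyclic day 16 heifer 7 (-0.74) and pregnant day 16 heifer 6 (-0.51), and their median lay within 0.5 of the group in the other 13 heifers. The 53 members that were low in heifer 9 lay within 0.43 of the group in every other heifer by their median. The 29 had a median abundance of 10.001 CPM and the 53 of 43.5 CPM. Over the 124 members the deviations of heifers 9 and 15 from their groups had a correlation of 0.636, the highest among pairs of heifers from different groups, with the next at 0.434. This likeness was not particular to the members. Over 14638 transcripts, heifer 15 was also the closest library to heifer 9 (chi-square per degree of freedom 6.66), and the next closest was cyclic day 13 heifer 5 (8.85). These subsets were formed after the values were seen and carry no test.

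Members moved together only in part. After the group means were removed, the correlation of a member with the mean of the others over 20 heifers had a median of 0.468 and was positive for 113 of the 124, and the first 2 axes of variation held 28.2% and 18.1% of the variance within groups. All members of a heifer share its library and depth, and no such value over all expressed transcripts is given here. The co-variation is therefore a description and is not read as particular to the members. Near-proportional values were seen in 9 pairs of members, with within-group correlations of at least 0.95, and no member took part in more than 1 such pair. The fifth and seventh members in rank had 1113 and 1108 counts in all, and 40.1 and 36.3 CPM in cyclic heifer 13 against 0.796 and 1.59 CPM in pregnant heifer 1. The sixth and eighth members kept a ratio of CPM of 1.34 over all heifers, and the sixth ranged from 330 CPM in cyclic heifer 8 to 25.7 CPM in cyclic heifer 13 within 1 group. Such pairs may be transcripts of 1 gene or near-identical copies that share reads, which the files do not resolve, and no member had exactly the counts of another identifier. With 1 member kept of each pair there were 115 profiles. Of these, 70 were called as lower on day 16 in cyclic heifers, where 1.24% of all transcripts were, and 85 in pregnant heifers, where 2.11% were. The rule used these contrasts, so the counts are a description.

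Values that the choice did not use come from pairs of heifers. One day 13 and one day 16 heifer of a state were left out together, the rule was applied to the other 18, and the mean log2(CPM + 1) of the resulting set was compared between the 2 heifers left out. In cyclic heifers the sets held 113 to 143 transcripts, and the day 16 heifer lay below the day 13 heifer in 25 of 25 pairs, with a median difference of -1.35 and a range of -1.83 to -0.54. In pregnant heifers the sets held 117 to 137 transcripts, and the difference was negative in 25 of 25 pairs, with a median of -1.45 and a range of -1.95 to -0.83. The smallest cyclic difference was between heifers 5 and 15 and the smallest pregnant one between heifers 9 and 4.

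Between the 2 heifers left out, a median of 93.1% of the set's transcripts (69.2% to 98.4%) were lower in the day 16 heifer in cyclic pairs, against a median of 50.1% (45.1% to 52.2%) of all expressed transcripts in the same pairs. In pregnant pairs the median was 93.02% (81.9% to 100%), against 50.7% (43.7% to 59.6%). The 25 pairs of a state share 10 heifers and are not replicates, so no test was made on them.

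**Figure D5:**
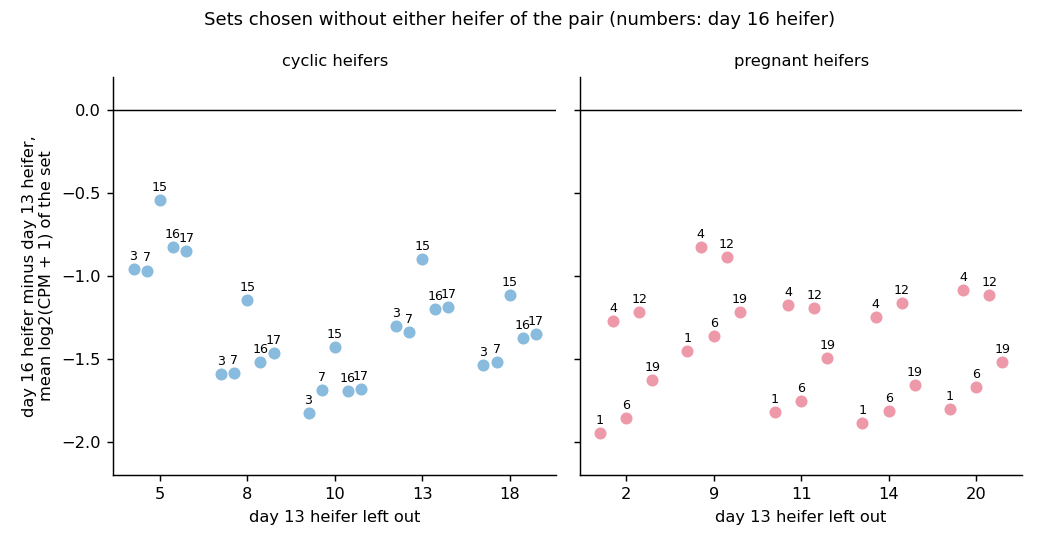
Mean log2(CPM + 1) of a set chosen without either heifer, as the day 16 heifer minus the day 13 heifer (vertical axis), one point per pair labelled with its day 16 heifer, above the number of its day 13 heifer (horizontal axis), for cyclic (left) and pregnant (right) heifers. All points lie below 0, the nearest being cyclic heifers 5 and 15 at -0.54.

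The choice can also be restricted to 1 state, since cyclic and pregnant heifers share no library. Of the 13646 expressed transcripts, 257 fell by at least 0.8 in cyclic heifers and 283 in pregnant heifers (1.88% and 2.07%), and 125 fell in both, which is 48.6% of the first list and 44.2% of the second. The 257 transcripts had a median change of -0.77 in pregnant heifers, where 79.8% of them had a negative change against 50.0% of all expressed transcripts, and 99 of the 257 were called as lower there (edgeR adjusted p under 0.05) against 2.11% of all transcripts. The 283 had a median change of -0.73 in cyclic heifers, 88.3% were negative there against 49.0% of all, and 88 of the 283 were called against 1.24%. The model estimated dispersion over all heifers, so the 2 states were not wholly separate in it. The mirrored rule, with rises in place of falls, found 40 transcripts, from 191 and 257 that rose by at least 0.8 in cyclic and in pregnant heifers, and no test compared this number with the 124.

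The members were also compared between pregnant and cyclic heifers of the same day. On day 13, a contrast the rule did not name although it used the same heifers, 0 of the 124 members were called between pregnant and cyclic heifers by edgeR, where 0% of all transcripts were. An unadjusted p under 0.05 was reached by 12 members (9.68%) against 6.54% of all transcripts, and the smallest edgeR adjusted p among members was 0.727. DESeq2 and limma voom also called 0 members, with 12 and 10 at an unadjusted p under 0.05. The shares of all transcripts for these tools are not given here, so their counts are not read further. Mean levels on day 13 were higher in pregnant heifers for 80 members, with a median difference of 0.10 on the log2 scale and a range of -0.54 to 0.98. The share of all expressed transcripts that were higher is not given here, and near-proportional pairs count as separate members. The number 80 is therefore a description and is not read as an effect of pregnancy on the members.

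On day 16, where the rule bounds the difference, 0 members were called by edgeR while 0.958% of all transcripts were, and 6 had an unadjusted p under 0.05 (4.84%, against 6.76% of all transcripts; DESeq2 0 and 6, limma voom 0 and 1). The median difference was 0.04 and 113 members lay within 0.5 of the cyclic level. The direct test of whether the day change differed between the states called 0 members (0.479% of all transcripts), with 2 at an unadjusted p under 0.05 (1.61%, against 11.1% of all transcripts; DESeq2 0 and 2, limma voom 0 and 1) and a smallest edgeR adjusted p of 0.345. The rule favours members with like changes, and a p above the threshold does not show that the changes were equal. For DESeq2 and limma voom the shares of all transcripts in these contrasts are not given here either.

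Deposited file names carry a six-digit code shared by several libraries, written here as letters A to D, and the labels do not say what it stands for. Within code A the median change of the members was -1.49 in cyclic heifers (1 heifer a day) and -1.53 in pregnant heifers (2 a day). Within code C it was -1.59 in cyclic (1 on day 13, 3 on day 16) and -1.22 in pregnant heifers (1 and 2), and within code B it was -1.55 in pregnant heifers (2 and 1). Between 115 and 124 of the 124 members were lower on day 16 in each of these 5 comparisons. The median change over all expressed transcripts in the same comparisons ran from -0.028 to 0.031. The rule used these same heifers, so the low levels within a code are a description and no support is drawn from them. Code B held no cyclic day 16 heifer and code D held only 1 cyclic day 16 heifer. With the code letter as a term in edgeR, 60 members were called as lower on day 16 in cyclic heifers, where 0.654% of all transcripts were, and 96 in pregnant heifers, where 1.86% were.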

How the data were processed

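Each of 21 Illumina libraries, single read per the labels' protocols, has a deposited table of whole-number counts, 1 for each Ensembl transcript identifier. The submitters' processing notes name CASAVA. For the aligner, the counting, its use of strand, the annotation and the build, the answer is: not given in the sources used here. Counts of overlapping or paralogous transcripts are therefore uncertain. CPM was 1000000 times the count over the library total, with a pseudocount of 1 on the log2 scale, and library 2 of heifer 12 was left out. Counts of the 20 heifers were fitted with edgeR 4.0.16 in R 4.3.3 (filterByExpr at its defaults, a count of 10 and a total of 15, TMM factors, robust quasi-likelihood, 4 group means, Benjamini-Hochberg adjustment). Alternatives were DESeq2 1.42.0, limma 3.58.1 (voom), upper quartile factors, no filter, the code letter, other treatments of library 2, and each heifer left out. The procedure was tested on simulated counts with the same dispersion for every transcript, which does not cover the wider spread of the members between heifers. Members were to be named by rank of the smaller fall, the first 25 with a gene symbol or, with no symbols, the first 2. Other members were described by rank after their values were seen. The members and lists were chosen with earlier results of these data known. Gene lists and marker lists were not tested, because no identifier had a symbol. The labels number the heifers, with no number shared between groups, so no comparison was paired. SDs describe the spread between heifers, and the floor of 3 counts covers counting error only. Each edgeR SE is the absolute log2 fold change over the square root of the quasi-likelihood F. That F uses a spread drawn towards that of all transcripts, and the SE is unreliable for changes near 0. Sets chosen without a pair of heifers were added after seeing the data, because comparing 1 heifer left out with the other day's mean used values that the choice had used.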

Additional observations from a re-analysis of the deposited data

Results flagged for a closer look

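In 56 sets of 5 values (the mean level and the share of counts of the members, and 12 members described by rank, in each group), 4 held a value far from the other heifers of its group. Chance gives about 1 in 20 for independent sets of normal values. These sets share heifers, and the members were examined as CPM and not on the log2 scale, so that rate is only a rough guide. Pregnant day 16 heifer 12 had 35.9 CPM of the fourth member, where the other 4 had at most 1.59 CPM, and 2116 CPM of the most abundant member, where the others had at most 1243 CPM. Cyclic day 13 heifer 18 had 2218 CPM of the most abundant member, against at least 3148 CPM in the others. In pregnant day 13 heifer 9 the members took 1.51% of the counts, below the other 4. Over all 496 sets of the 124 members in 4 groups, 31 (6.25%) held such a value, and 7 of these were high values of pregnant day 16 heifer 12 and 7 were high values of cyclic day 16 heifer 15.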

How the results depend on the processing

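The number of members ranged from 85 with a fall of 1.0 required to 147 with a minimum mean of 2 CPM, and from 113 to 136 without each heifer in turn. The members called as lower on day 16 numbered 57 (without cyclic day 16 heifer 3) to 97 (DESeq2) in cyclic heifers. In pregnant heifers they numbered 72 (without pregnant day 16 heifer 6) to 105 (DESeq2 and library 2 of heifer 12 in place of library 1). DESeq2 called 1.94% and 2.76% of all transcripts as lower in cyclic and pregnant heifers, against 1.24% and 2.11% by edgeR. Shares for the fits without a heifer are not given here. The rule used these contrasts, so the counts are a description. The members' median edgeR log2 fold change was -1.47 in cyclic and -1.35 in pregnant heifers. Without each heifer in turn it lay between -1.49 and -1.28 in cyclic and between -1.45 and -1.25 in pregnant heifers. Over all alternatives run the ranges were -1.59 to -1.28 and -1.55 to -1.22. These wider ranges take in the changes within a code, which are differences of log2(CPM + 1) and not edgeR fold changes. Calls between pregnant and cyclic heifers on either day, and for a difference between the states in the day change, numbered 0 among the members under each alternative run. Compared with the other day's mean, which the choice used, the nearest heifer left out differed by 0.87, and with 1 heifer of each day left out together the smallest difference was 0.54. ENSBTAT00000006144 passed the threshold in cyclic heifers under each alternative run except with the code letter as a term, where its log2 fold change was -2.80 (edgeR adjusted p = 0.0518), and ENSBTAT00000028139 passed in both states under each alternative run. The choice to keep 1 member of each near-proportional pair was made after seeing the data. No paired analysis was possible because the groups share no heifer number. Depth limits the members that came down to a few counts on day 16, where a value of 3 counts or fewer was seen in 18 members in cyclic and 31 in pregnant heifers.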
